A study of Mus musculus with 6 samples.

Results

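Macrophages of the embryonic palate were followed through 10 genes that they express: the receptors Csf1r and Cx3cr1, the surface proteins Adgre1 (F4/80) and Ptprc (CD45), the scavenger receptor Mrc1 (CD206), the lysosomal protein Cd68, the complement genes C1qa, C1qb and C1qc, and the coagulation factor gene F13a1. The genes were a list given by symbol. All 10 were found among the 49492 genes of the deposited count table, and all 10 passed the filter on low counts that left 19284 genes to test. The tissue was the palatal shelf, the paired outgrowth that forms the roof of the mouth, dissected from C57BL mouse embryos at E14.5 and measured by poly(A) RNA-seq. The 3 control libraries came from embryos with the genotype PRMT1 fl/fl, in which both copies of the arginine methyltransferase gene are flanked by loxP sites. In the 3 deletion libraries the genotype was Wnt1-Cre; PRMT1 fl/fl, with the same alleles and a Cre recombinase driven in the neural crest, the source of most palatal mesenchyme. All groups share the floxed alleles, and no library carried Cre alone, so an effect of Cre and one of the deletion cannot be told apart. Whether each library came from a separate embryo is not given in the sources used here, so p-values reflect the spread of these 6 libraries as deposited.

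Macrophages of the embryo descend from progenitors of the yolk sac and fetal liver, not from the neural crest. They depend on CSF1R, the receptor for the growth factors CSF1 and IL-34, and they clear dying cells and debris while organs take shape. In textbook descriptions CX3CR1 and F4/80 mark much of the resident population, CD206 and factor XIII A mark tissue macrophages with scavenging functions, and CD45 marks all white blood cells.

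Libraries held 44919889 to 50022829 estimated counts, and are named by the number in their column of the table: 212, 213 and 220 for control, and 208, 211 and 221 for deletion. The 10 genes together took 6097 to 10237 of these counts, or 0.0135% to 0.0205% of a library. Levels are given as CPM, counts scaled to the size of the library with TMM, edgeR's correction for library composition. Prmt1 itself was at 257.9, 249.7 and 246.3 CPM in controls 212, 213 and 220 and at 200.9, 205.5 and 217.3 CPM in deletion 208, 211 and 221, below every control (log2 fold change -0.27, edgeR's adjusted p = 0.0113, and up to 0.0674 without control 213, deletion 208 or deletion 211). Across all tested genes 1352 differed at an adjusted p under 0.05, which is 7.01% of genes, with 3.37% lower and 3.65% higher in the deletion libraries. Controls 212 and 213 had low Xist (15.5 and 16.0 CPM), while the other 4 libraries had 3384 to 4487 CPM. By this female-specific transcript, control 220 is the only control matched in sex to the deletion libraries, and with sex in the model the group difference rests on it alone. In that model Prmt1 had a log2 fold change of -0.24 and did not pass (edgeR's adjusted p = 0.177).

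F13a1 fell in the deletion libraries and was the single member past the threshold. Mrc1 and Ptprc were also lower in every deletion library than in any control without passing, and the other 7 members overlapped between groups. Of the 10 members 1 was called lower (against 3.37% of all tested genes) and 0 higher (against 3.65%). In 3 members every deletion library was below every control (against 13.5% of tested genes), and in 0 every one was above (against 14.1%). At an unadjusted p under 0.05, 3 were lower and 0 higher (against 11.3% and 11.2% of all tested genes, 22.5% together), while DESeq2 called 2 lower and 0 higher (11.0% of all tested genes) and limma voom 1 lower and 0 higher (6.50%). The median log2 fold change over the members was -0.15 (range -0.88 to 0.07), and -0.00013 over all tested genes. With embryo sex as a covariate, 0 members passed with edgeR (0.669% of all genes passed). In that fit 1 member was lower and 0 higher at an unadjusted p under 0.05, where the share of all genes was not counted. Against control 220 alone the members' median log2 fold change was -0.0033. With the ratio of Hbb-y (embryonic) to the adult beta-globin genes in the model, 0 members passed (1.52% of genes). This ratio was lowest at 0.0779 (213) and 0.0946 (212), and reached 0.2 for control 220. Deletion libraries had 0.191 (208), 0.196 (211) and 0.32 (221). Control 220 thus lay with the deletion libraries in this ratio, as in Xist, so the sex and globin models are not independent checks. A difference in stage between libraries was not tested. With 1 library left out, the members called were 1 without control 212 (4.78% of genes), 0 without control 213 (1.81%), 2 without control 220 (7.04%), 0 without deletion 208 (2.77%), 0 without deletion 211 (3.59%) and 1 without deletion 221 (9.45%). In bulk tissue, fewer macrophages and less RNA of these genes per macrophage cannot be told apart.

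**Figure D1:**
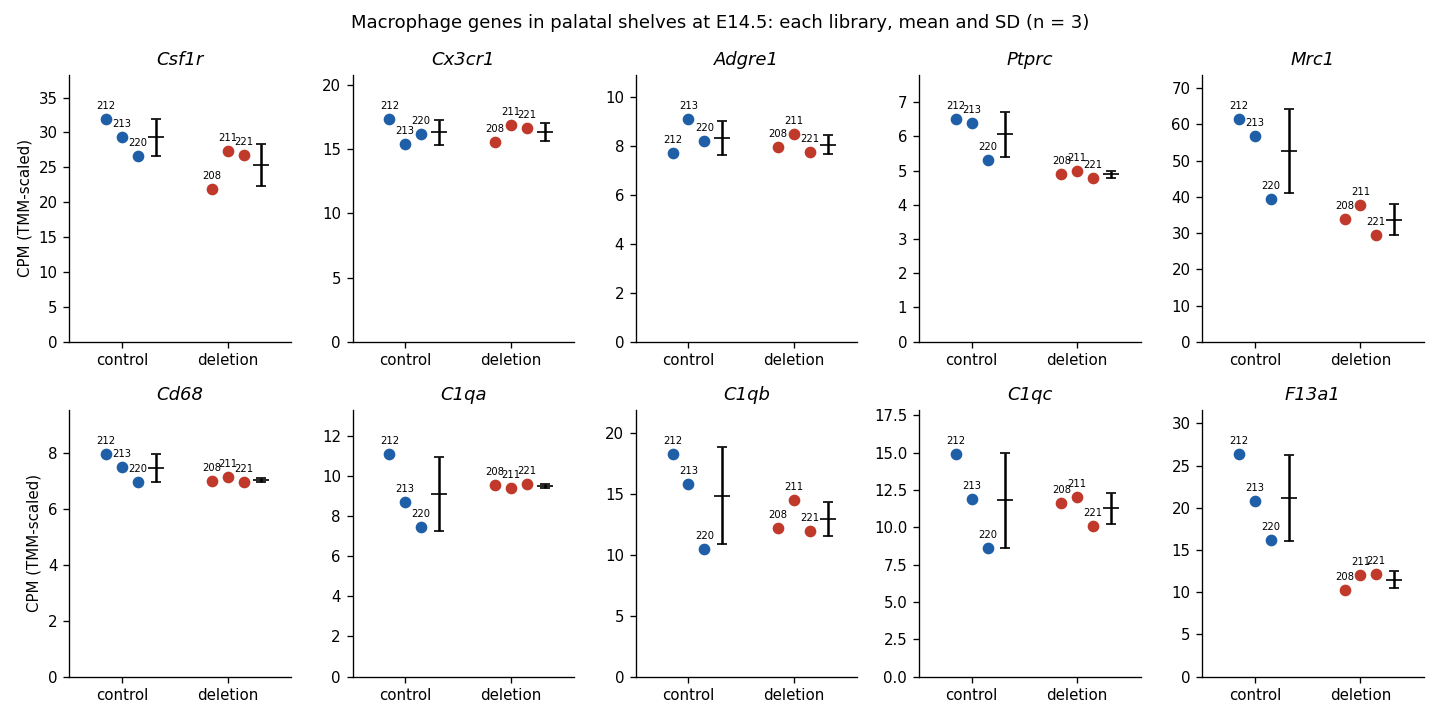
CPM (TMM-scaled, axes from 0) of the 10 macrophage genes in each library, blue for control and red for deletion, with the mean and SD of 3 libraries in black. F13a1, Mrc1 and Ptprc do not overlap between groups, Cx3cr1 has means of 16.3 and 16.4 CPM, and each C1q gene has control 212 highest and control 220 lowest.

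F13a1 encodes the A subunit of factor XIII, the transglutaminase that crosslinks fibrin, which tissue macrophages and platelets make. The gene lies on chromosome 13 (36867178 to 37050244, minus strand, GENCODE M21 on GRCm38, the assembly that mm10 names). It measured 26.4, 20.8 and 16.2 CPM in controls 212, 213 and 220, and 10.3, 12.1 and 12.1 CPM in deletion 208, 211 and 221. Every deletion library was below every control, and the controls spread more widely than the deletion libraries. Mean levels of 21.1 ± 5.09 and 11.5 ± 1.03 CPM (SD, n = 3 each) gave a 1.84-fold fall, or -0.88 ± 0.16 on the log2 scale (SE, edgeR's adjusted p = 0.0147). The call was lost without control 213, deletion 208 or deletion 211 (edgeR's adjusted p = 0.0674, 0.0719 and 0.058), where the log2 fold changes were -0.89, -0.81 and -0.92. With embryo sex as a covariate the log2 fold change was -0.50 (edgeR's adjusted p = 0.188), against control 220 alone it was -0.49 (0.249), and with the globin ratio in the model it was -0.62 (0.213).

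Platelets and their precursors also make F13a1, as do some skeletal and mast cells. The summed level of 6 megakaryocyte and platelet markers was 8.42 to 9.17 CPM in controls against 6.57 to 9.27 CPM in deletion libraries, so these overlapped. Of the 5 that could be tested, 0 passed in either direction with edgeR, 0 reached an unadjusted p under 0.05, and DESeq2 called 0. Itga2b, the platelet integrin subunit, was at 3.92 ± 0.267 and 3.84 ± 0.764 CPM (SD, n = 3 each), and Gp1bb at 2.08 ± 0.163 and 1.94 ± 0.169 CPM. Ppbp, a platelet chemokine, was at 1.57 ± 0.282 and 0.871 ± 0.524 CPM, with overlapping groups and a log2 fold change of -0.85 (edgeR's adjusted p = 0.25). The summed osteoblast markers (823 to 1186 CPM against 155.8 to 320.8 CPM) and mast cell markers (4.66 to 10.3 CPM against 2.83 to 4.32 CPM) were below every control in every deletion library. With edgeR 0 of 4 tested osteoblast markers passed (unadjusted 4 lower and 0 higher), while DESeq2 and edgeR without robust estimation each called 4 lower and 0 higher. Of 4 tested mast cell markers 1 was lower and 0 higher with edgeR, and 2 lower and 0 higher with DESeq2. Chondrocyte markers went the other way, with sums of 252.7 to 383.6 CPM in controls against 602.7 to 676.5 CPM in deletion libraries. Of these 5 markers 3 were called higher and 0 lower with edgeR, and 5 higher and 0 lower with DESeq2. The part of any of these cells in the level of F13a1 was not tested.

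Promoter sequences were read for the member that fell, for Mrc1, for a pair of C1q genes and for Cx3cr1, whose level did not separate the groups, so that members with different behaviour can be compared. RefSeq windows on GRCm38.p6, from 250 bases before to 50 after a start site, were found for 7 of the 10 members (not for Csf1r, Adgre1 and C1qa) in 9 windows of 300 bases. Capitals mark GGAAGT on either strand (ACTTCC on the other), the core letters bound by PU.1 and other ETS factors. PU.1, encoded by Spi1, is the factor that macrophages need to form. F13a1 has 2 windows, the first at chr13:37049164-37049463 and the second at chr13:37050195-37050494, both on the minus strand. The others lie at chr2:14229164-14229463 for Mrc1 (plus strand), chr4:136886151-136886450 for C1qb, chr4:136892865-136893164 for C1qc and chr9:120068247-120068546 for Cx3cr1 (all minus strand).
F13a1, first window: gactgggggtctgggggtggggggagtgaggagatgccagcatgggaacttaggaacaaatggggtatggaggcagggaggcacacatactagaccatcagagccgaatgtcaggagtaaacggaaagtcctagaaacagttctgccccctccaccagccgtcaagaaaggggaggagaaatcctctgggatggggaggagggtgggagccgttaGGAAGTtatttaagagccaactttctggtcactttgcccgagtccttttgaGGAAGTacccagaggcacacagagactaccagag
F13a1, second window: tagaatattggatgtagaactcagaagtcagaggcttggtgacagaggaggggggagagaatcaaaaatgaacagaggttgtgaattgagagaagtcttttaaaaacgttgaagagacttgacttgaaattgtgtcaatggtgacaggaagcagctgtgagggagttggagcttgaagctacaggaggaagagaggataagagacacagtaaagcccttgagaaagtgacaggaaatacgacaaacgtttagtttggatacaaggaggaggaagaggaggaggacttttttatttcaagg
Mrc1: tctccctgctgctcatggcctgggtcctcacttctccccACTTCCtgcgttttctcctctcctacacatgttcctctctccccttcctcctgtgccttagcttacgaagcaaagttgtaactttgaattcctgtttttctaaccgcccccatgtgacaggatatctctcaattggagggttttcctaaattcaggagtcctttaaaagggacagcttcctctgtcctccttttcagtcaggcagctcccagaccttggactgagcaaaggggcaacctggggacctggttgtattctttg
C1qb: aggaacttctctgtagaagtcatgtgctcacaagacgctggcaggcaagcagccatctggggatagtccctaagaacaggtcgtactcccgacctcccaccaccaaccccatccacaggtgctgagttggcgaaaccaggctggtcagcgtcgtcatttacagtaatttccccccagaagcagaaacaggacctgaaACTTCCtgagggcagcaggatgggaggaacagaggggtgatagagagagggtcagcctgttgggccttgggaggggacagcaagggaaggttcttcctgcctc
C1qc: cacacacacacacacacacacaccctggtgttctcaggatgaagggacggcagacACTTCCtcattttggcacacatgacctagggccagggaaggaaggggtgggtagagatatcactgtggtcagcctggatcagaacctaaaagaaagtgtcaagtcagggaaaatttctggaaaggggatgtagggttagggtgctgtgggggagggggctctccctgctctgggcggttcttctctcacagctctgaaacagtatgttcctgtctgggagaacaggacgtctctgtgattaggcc
Cx3cr1: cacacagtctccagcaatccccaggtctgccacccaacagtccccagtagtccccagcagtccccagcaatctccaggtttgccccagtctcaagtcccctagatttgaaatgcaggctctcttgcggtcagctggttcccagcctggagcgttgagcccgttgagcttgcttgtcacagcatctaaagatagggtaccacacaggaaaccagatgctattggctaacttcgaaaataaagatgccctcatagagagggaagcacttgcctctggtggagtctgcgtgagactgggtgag

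GGAAGT stood in 7 of the 9 member windows, belonging to 6 of the 7 genes (Ptprc, Mrc1, Cd68, C1qb, C1qc and F13a1), and in 23.8% of all 32851 RefSeq windows of the same length. The 2 windows of Ptprc (138175077 to 138175376 and 138175256 to 138175555 on chromosome 1) overlap and share 1 match, which is counted in both. The share of 23.8% is per window, and a gene with 2 windows has more chances to hold a match. The first window of F13a1 held it 2 times, starting 35 bases before and 16 bases after the start site, and the second window did not hold it. In C1qb the match began 53 bases before the start site, in C1qc 195 and in Mrc1 211. The Cx3cr1 window held no match to these letters. The shorter ETS core GGAA, which GGAAGT contains, stood in all 9 member windows and in 96.0% of all windows. TGCTGA, a core of the site of MAF factors, stood in 1 member window (C1qb) and in 19.5% of all windows. A match of letters is a description and not a bound site.

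Mrc1 encodes CD206, the mannose receptor that takes up glycoproteins and collagen fragments, and had the highest CPM of the 10 genes. It lies on chromosome 2 (14229392 to 14332057, plus strand). Controls 212, 213 and 220 measured 61.4, 56.8 and 39.5 CPM, and deletion 208, 211 and 221 measured 33.9, 37.8 and 29.4 CPM. Control 220 was close above the highest deletion library, and the other controls were well above it. Mean levels were 52.6 ± 11.6 and 33.7 ± 4.21 CPM (SD, n = 3 each), with a log2 fold change of -0.64 ± 0.18 (SE, 95% interval -1.08 to -0.21, edgeR's adjusted p = 0.095). Mrc1 passed without control 220 (log2 fold change -0.81, edgeR's adjusted p = 0.00184), with the DESeq2 Wald test (adjusted p = 0.000185) and with edgeR without robust estimation (adjusted p = 0.0393). With embryo sex as a covariate the log2 fold change was -0.23 (edgeR's adjusted p = 0.462), and with the globin ratio it was -0.19 (0.439).

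Lymphatic vessels also make Mrc1. Of 5 lymphatic endothelial markers, 1 fell and 0 rose with edgeR (unadjusted 3 lower and 0 higher, DESeq2 2 lower and 0 higher). Over all tested genes 3.37% were lower and 3.65% higher (unadjusted 11.3% and 11.2%). The summed level of the 5 markers was 100.8 to 124.9 CPM in controls against 84.4 to 98.0 CPM in deletion libraries. Flt4, the lymphatic VEGF receptor, went from 28.8 ± 3.59 to 20.7 ± 0.455 CPM (SD, n = 3 each, log2 fold change -0.48, edgeR's adjusted p = 0.0116), and not past the threshold without control 213 or deletion 208 (highest adjusted p = 0.0629) or with embryo sex as a covariate (-0.31, adjusted p = 0.246). Pdpn was at 36.2 ± 1.85 and 31.7 ± 0.718 CPM (log2 fold change -0.19, edgeR's adjusted p = 0.115). Ccl21a, a chemokine of lymphatic vessels, was at 22.9 ± 8.57 and 9.05 ± 1.54 CPM, with every deletion library below every control (log2 fold change -1.34, edgeR's adjusted p = 0.0863). Prox1, the defining lymphatic transcription factor, was at 20.3 ± 0.267 and 22 ± 4.06 CPM and overlapped between groups. The part of lymphatic cells in the level of Mrc1 was not tested.

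Ptprc encodes CD45, the receptor tyrosine phosphatase on all white blood cells, and lies on chromosome 1 (138062861 to 138175708, minus strand). It measured 6.50, 6.39 and 5.30 CPM in controls 212, 213 and 220 and 4.89, 5.0 and 4.78 CPM in deletion 208, 211 and 221. The groups did not overlap, and the 3 deletion libraries lay close together. The log2 fold change was -0.31 ± 0.14 (SE, 95% interval -0.62 to -0.00023) with an adjusted p (edgeR) of 0.222, and 0 of 16 alternative settings called it. It was -0.12 once embryo sex entered the model.

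Csf1r, the receptor on which macrophage survival depends, lies on chromosome 18 (61100598 to 61132149, plus strand). It was at 31.9, 29.4 and 26.6 CPM in controls 212, 213 and 220 and at 21.8, 27.3 and 26.8 CPM in deletion 208, 211 and 221. Deletion 208 was the lowest of the 6, and deletion 211 and 221 lay inside the control range. The log2 fold change was -0.21 ± 0.10 (SE, 95% interval -0.43 to 0.0089, edgeR's adjusted p = 0.243). Of its exon length 15.1% is shared with Hmgxb3 on the opposite strand, and since the strand setting is not given, reads there cannot be assigned with certainty.

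Cx3cr1, the fractalkine receptor of macrophages and microglia (chromosome 9, 119901616 to 120069879, minus strand), had nearly equal group means. Its values were 17.3, 15.4 and 16.2 CPM in controls 212, 213 and 220 and 15.5, 16.9 and 16.6 CPM in deletion 208, 211 and 221. The groups overlapped, and the highest and the lowest values were both controls. The log2 fold change was 0.0027 ± 0.09 (SE, edgeR's adjusted p = 0.99), and its 95% interval ran from -0.19 to 0.19.

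Adgre1 encodes F4/80, an adhesion receptor used as the standard surface marker of mouse macrophages (chromosome 17, 57358691 to 57483527, plus strand). It measured 7.71, 9.07 and 8.19 CPM in controls 212, 213 and 220, and 7.93, 8.46 and 7.75 CPM in deletion 208, 211 and 221. All 3 deletion libraries lay inside the control range. The log2 fold change was -0.05 ± 0.12 (SE, 95% interval -0.31 to 0.21, edgeR's adjusted p = 0.861).

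Cd68 encodes macrosialin, a glycoprotein of late endosomes and lysosomes (chromosome 11, 69664213 to 69666153, minus strand). Controls 212, 213 and 220 were at 7.95, 7.5 and 6.95 CPM, and deletion 208, 211 and 221 at 6.99, 7.12 and 6.96 CPM. Again the deletion libraries stayed within the control range, next to control 220. The log2 fold change was -0.09 ± 0.12 (SE, 95% interval -0.35 to 0.18, edgeR's adjusted p = 0.728).

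**Figure D2:**
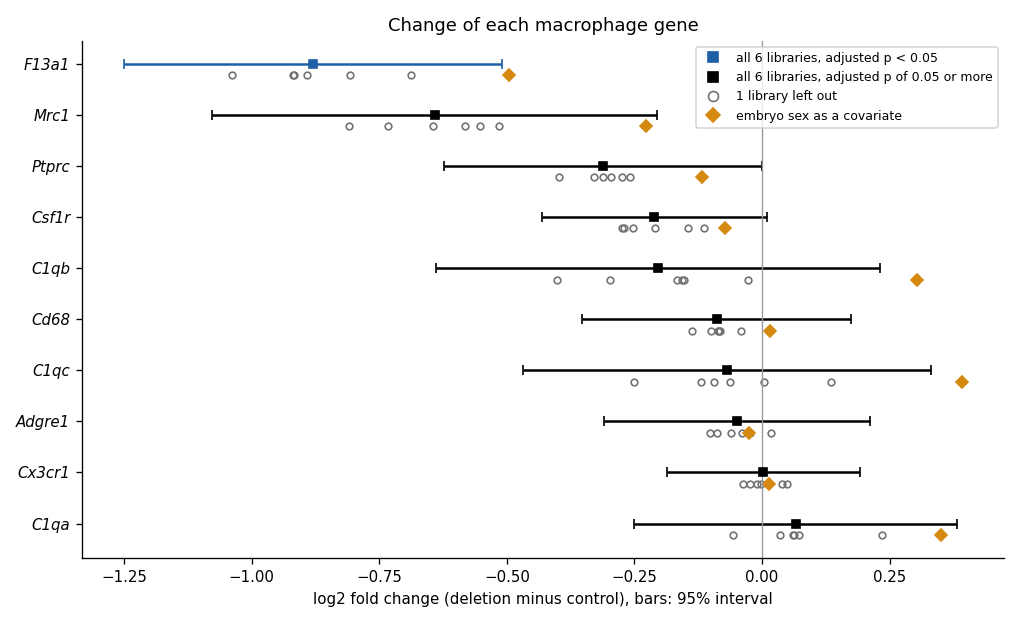
Log2 fold change (deletion minus control) of each gene with its 95% interval, blue where the adjusted p is under 0.05, with open circles for fits that leave out 1 library and diamonds for embryo sex as a covariate. F13a1 is at -0.88, Cx3cr1 at 0.0027, and the diamonds of C1qb and C1qc are at 0.30 and 0.39.

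C1qa, C1qb and C1qc encode the 3 chains of C1q, the recognition protein that starts the classical complement pathway and tags debris for uptake. They lie side by side on the minus strand of chromosome 4, within 18675 bases (136880129 to 136898803). C1qb had the highest CPM of the 3, with 18.3, 15.8 and 10.5 in controls 212, 213 and 220 and 12.2, 14.53 and 12 in deletion 208, 211 and 221. C1qc measured 14.9, 11.9 and 8.58 CPM in the same controls against 11.7, 12 and 10.1 CPM in deletion 208, 211 and 221. C1qa measured 11.1, 8.71 and 7.46 CPM and 9.57, 9.40 and 9.58 CPM. For all 3 genes control 212 was the highest of the 6 libraries and control 220 the lowest, with every deletion library between them.

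No C1q gene passed in the full comparison. The log2 fold changes were 0.07 for C1qa (95% interval -0.25 to 0.38), -0.20 for C1qb (-0.64 to 0.23) and -0.07 for C1qc (-0.47 to 0.33), with edgeR's adjusted p = 0.846, 0.6 and 0.874. With embryo sex as a covariate, which rests on control 220, the values were 0.35, 0.30 and 0.39 (edgeR's adjusted p = 0.411, 0.43 and 0.356). C1qb and C1qc thus turned from below to above 0 in that fit, while C1qa stayed above 0. C1qa turned below 0 without control 220 (-0.057), and C1qc above 0 without control 212 (0.14) or deletion 221 (0.0042). The ratio of C1qa to C1qb was 0.624 ± 0.0832 in controls and 0.743 ± 0.0838 in deletion libraries (SD, n = 3 each, two-sided exact permutation p = 0.2). The ratio of C1qc to C1qb was 0.796 ± 0.0389 and 0.875 ± 0.0679 (exact permutation p = 0.1, the smallest that 3 against 3 allow), with every deletion library above every control.

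**Figure D3:**
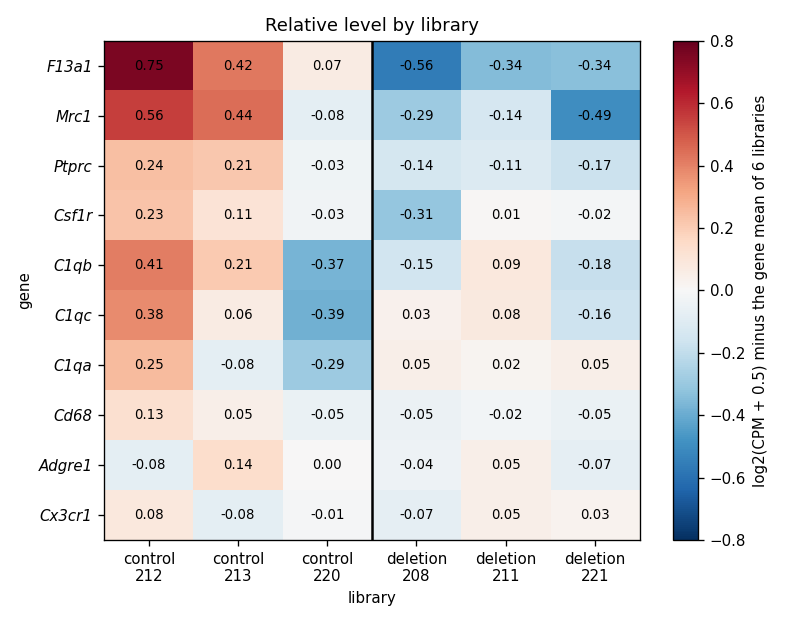
Level of each gene in each library as log2(CPM + 0.5) minus that gene's mean over the 6 libraries, red above and blue below the mean, with controls left of the line. Control 212 is at 0.75 for F13a1 and control 220 at -0.39 for C1qc, while Cx3cr1 stays between -0.08 and 0.08.

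Most pairs of members varied in the same direction, to different degrees. Over the 45 pairs of members, Pearson's r of log2 levels across the 6 libraries had a median of 0.552 and was above 0 in 42 pairs. It ran from -0.528 (Cx3cr1 with Adgre1) to 0.984 (Ptprc with Mrc1). Cx3cr1 and Adgre1 varied little, from -0.08 to 0.08 and from -0.08 to 0.14 around their mean log2 levels. After Ptprc with Mrc1, the highest r were those of Ptprc with F13a1 (0.956), C1qb with C1qc (0.928) and Mrc1 with F13a1 (0.926). These are descriptions over 6 libraries that share the group difference and the high levels of controls 212 and 213. The 10 members summed to 203.4, 181.9 and 145.4 CPM in controls 212, 213 and 220, and to 134.8, 150.7 and 136.1 CPM in deletion 208, 211 and 221, so the sum overlapped between groups through control 220.

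Ratios within a library compare the members with the receptor that defines the lineage. F13a1 stood at 0.827, 0.709 and 0.608 of the CPM of Csf1r in controls 212, 213 and 220 and at 0.472, 0.441 and 0.452 in deletion 208, 211 and 221. Every deletion library was below every control (exact permutation p = 0.1, adjusted p = 0.45 over 9 ratios). Cx3cr1 relative to Csf1r went the other way, at 0.544, 0.525 and 0.608 in the controls against 0.711, 0.619 and 0.620 in deletion 208, 211 and 221, with the same p. The ratios of the other 7 members to Csf1r overlapped between groups, Mrc1 among them (1.78 ± 0.259 and 1.34 ± 0.231, SD, n = 3 each). With 3 against 3 libraries, none of these ratios could pass.

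Levels can be compared between genes after division by transcript length, here the longest coding transcript of each gene. In controls C1qb was highest at 13.7 ± 3.67 CPM per kilobase (SD, n = 3 here and for the other levels per length). C1qc followed at 9.80 ± 2.63, Mrc1 at 9.78 ± 2.15 and C1qa at 8.74 ± 1.77 CPM per kilobase, and the ranges of neighbours among these 4 overlapped. Csf1r (6.23 ± 0.558), Cd68 (6.07 ± 0.405) and F13a1 (5.35 ± 1.29) came next, also with overlapping neighbours and below the lowest C1qa value. Cx3cr1 (3.63 ± 0.214), Adgre1 (2.57 ± 0.214) and Ptprc (1.19 ± 0.13) were lowest, each apart from its neighbours in every control. In the deletion libraries F13a1 was at 2.91 ± 0.259 CPM per kilobase, below Cx3cr1 at 3.64 ± 0.162. That change of order depends on the length used: with the union of all exons F13a1 was already below Cx3cr1 in controls, at 3.14 against 3.62 CPM per kilobase. With the same lengths C1qa (8.74) and Mrc1 (8.25) ranked above C1qc (6.11), Cd68 (5.94) above Csf1r (5.08), and Ptprc was at 0.331 CPM per kilobase.

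Genes of macrophages, of their ligands and signalling, of complement and of phagocytosis were taken from 5 lists with 98 genes, of which 96 were tested. Together 10 were lower and 0 higher in the deletion libraries (10.4%, against 3.37% lower and 3.65% higher among all tested genes), with 27 lower and 5 higher at an unadjusted p under 0.05 (against 11.3% and 11.2% of all tested genes), and 17 lower and 2 higher with DESeq2. The median log2 fold change was -0.18. Several of the genes called lower, Csf1, Maf, Cebpb, Stab1 and Pros1 among them, are also made by other cell types. These counts therefore do not measure macrophages alone. With embryo sex as a covariate 1 was lower and 1 higher (Serping1), and without control 213 the count was 3 lower, Csf1 and Maf among them. Csf1 and Maf were called in each of the 6 fits that left out 1 library.

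Of 31 further macrophage identity genes 29 were tested, 3 fell and 0 rose (unadjusted 12 lower and 0 higher, DESeq2 8 lower and 0 higher), with a median log2 fold change of -0.39. The share lower was 10.3%, against 3.37% of all tested genes (unadjusted 11.3% lower and 11.2% higher). Among the 3 were Stab1, a scavenger receptor shared with sinusoidal and lymphatic endothelium, and Ccr1, a chemokine receptor of myeloid cells. Stab1 went from 83.2 ± 6.56 to 66.3 ± 2.06 CPM (SD, n = 3 each, log2 fold change -0.33, edgeR's adjusted p = 0.0121). Ccr1 fell 1.97-fold, from 4.16 ± 1.03 to 2.12 ± 0.496 CPM (edgeR's adjusted p = 0.0328). It missed the threshold without control 212, control 213, deletion 208 or deletion 211, and Stab1 without control 213 or deletion 208. Vsig4 was at 0 in every library, and 23 of the 29 fold changes were below 0, against 50.0% of all tested genes.

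Among 13 myeloid transcription factors 2 fell and 0 rose (unadjusted 4 lower and 0 higher, DESeq2 2 lower and 0 higher). This put 15.4% lower, against 3.37% of all tested genes (unadjusted 11.3% lower and 11.2% higher). Maf, which encodes the c-MAF factor of macrophages and is also expressed in cartilage and other mesenchyme, went from 113.1 ± 4.76 to 81.4 ± 7.83 CPM (SD, n = 3 each, log2 fold change -0.48, edgeR's adjusted p = 0.00298, and 0.0968 with embryo sex as a covariate). Cebpb, a factor of inflammatory and scavenging macrophages with wide expression elsewhere, fell 1.52-fold, from 10.1 ± 2.00 to 6.67 ± 0.522 CPM (edgeR's adjusted p = 0.038), and missed the threshold in 5 of the 6 fits that left out 1 library, all but the one without control 220. The median of the list was -0.11.

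The list of ligands and leukocyte signalling genes had 2 of 15 lower and 0 higher (unadjusted 4 lower and 0 higher, DESeq2 3 lower and 0 higher) and a median log2 fold change of -0.27. Here 13.3% were lower, against 3.37% of all tested genes (unadjusted 11.3% lower and 11.2% higher). Csf1, the growth factor that binds CSF1R and is made by mesenchyme and other stromal cells, measured 44.6, 46.2 and 38.9 CPM in controls 212, 213 and 220 and 30.4, 31.0 and 32.6 CPM in deletion 208, 211 and 221. Every deletion library was below every control. The log2 fold change was -0.46 ± 0.08 (SE, edgeR's adjusted p = 0.00586). It kept this side of the threshold with any 1 library left out (-0.53 to -0.41, highest adjusted p = 0.0467) and not with embryo sex as a covariate (-0.31, edgeR's adjusted p = 0.149).

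Of 16 complement genes other than C1q, 2 fell and 0 rose (unadjusted 5 lower and 2 higher, DESeq2 3 lower and 1 higher), with a median log2 fold change of -0.26. The fallen share was 12.5%, against 3.37% of all tested genes (unadjusted 11.3% lower and 11.2% higher). C1s1, a protease of the C1 complex, went from 8.63 ± 0.346 to 5.56 ± 0.866 CPM (SD, n = 3 each, log2 fold change -0.64, edgeR's adjusted p = 0.0216). C4b, the next component cleaved in the pathway, measured 3.20, 3.29 and 0.660 CPM in controls 212, 213 and 220 and 0.300, 0.197 and 0.0446 CPM in deletion 208, 211 and 221 (log2 fold change -3.68, edgeR's adjusted p = 0.0357). Control 220 was far below the other controls. A near-identical copy of C4b lies in the mouse genome, so its counts are uncertain. Both missed the threshold without control 212, control 213, deletion 208 or deletion 211, and C4b also without deletion 221 (highest adjusted p = 0.104 for C1s1 and 0.16 for C4b) and with embryo sex as a covariate (0.228 and 0.217). C4b then had a log2 fold change of -1.83, and of -1.60 with the globin ratio, and was called in 5 of 15 alternatives.

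Among 23 genes of phagocytosis and the lysosome, 1 fell and 0 rose (unadjusted 2 lower and 3 higher, DESeq2 1 lower and 1 higher), with a median log2 fold change of -0.01. The 4.35% lower was near the 3.37% of all tested genes (3.65% higher, unadjusted 11.3% lower and 11.2% higher), so the single call does not stand for the list. The gene that fell was Pros1, the protein S ligand of the TAM receptors that recognise dying cells, from 70.0 ± 3.20 to 56.3 ± 1.6 CPM (SD, n = 3 each, edgeR's adjusted p = 0.00885), lost without control 213 (0.0662). It is made by many cell types.

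**Figure D4:**
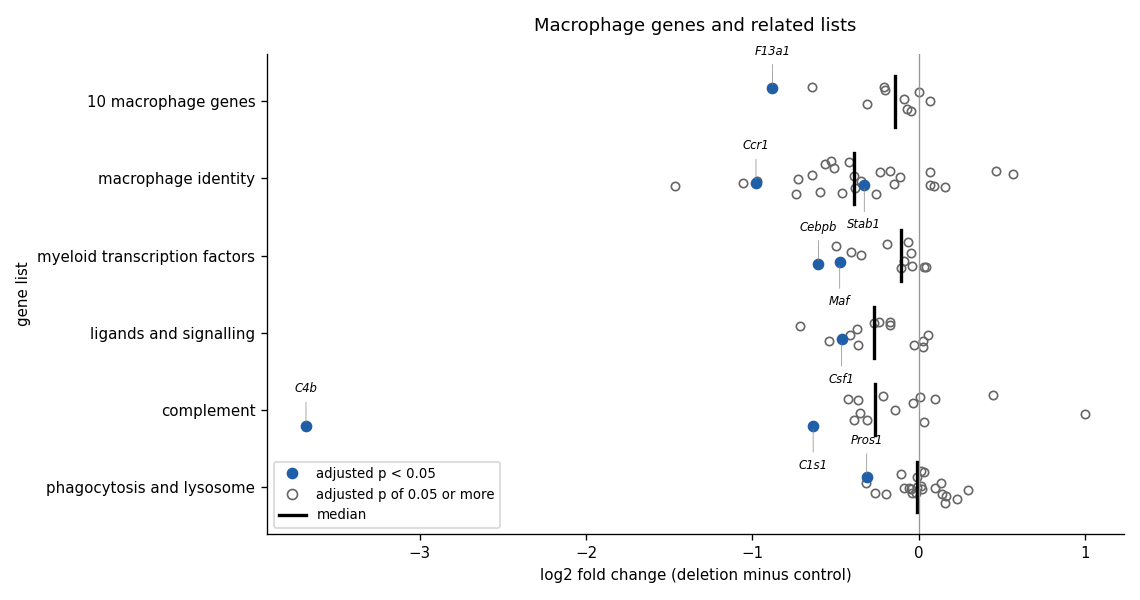
Log2 fold change (deletion minus control) of each tested gene in the 10 macrophage genes and 5 related lists, filled and named where the adjusted p is under 0.05, with black bars at the medians of the full lists (genes not reported here are not drawn). Csf1 is at -0.46 and C4b at -3.68, and the phagocytosis and lysosome genes lie around their median of -0.01.

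Markers of other white blood cells and of neighbouring tissues moved as follows. Ccr2, a receptor of monocytes, went from 6.55 ± 1.33 to 3.58 ± 0.768 CPM (SD, n = 3 each, log2 fold change -0.87, edgeR's adjusted p = 0.0276), while the summed level of 11 monocyte and neutrophil markers overlapped (10.8 to 12.7 CPM for controls, 8.37 to 18.4 CPM with deletion). Of the 7 monocyte and neutrophil markers tested, 1 was lower and 0 higher with edgeR (unadjusted 1 lower and 2 higher). In this list 5 fold changes were above 0 and 2 below, with a median log2 fold change of 0.82, so Ccr2 does not stand for the list. Mast cell markers summed to 4.66 to 10.3 CPM in controls against 2.83 to 4.32 CPM in deletion libraries, and the mast cell protease gene Cma1 fell from 1.69 ± 0.603 to 0.526 ± 0.239 CPM (edgeR's adjusted p = 0.0306). Ccr2 missed the threshold without control 212, control 213, deletion 208 or deletion 211, and Cma1 without control 212, control 213, deletion 211 or deletion 221. With embryo sex as a covariate neither passed (log2 fold changes -0.49 and -0.90, edgeR's adjusted p = 0.406 and 0.44). Lymphoid markers were at most 4.58 CPM in sum. Osteoclasts share the monocyte lineage, and their 9 markers summed to 87.7 to 129.95 CPM in controls against 62.4 to 123.6 CPM in deletion libraries. With edgeR 1 of the 9 was lower and 0 higher (unadjusted 3 lower and 1 higher), and 2 fold changes were above 0. The lower marker was Ctsk, the osteoclast cathepsin that stromal cells also make (51.1 ± 2.48 and 39.3 ± 1.36 CPM, edgeR's adjusted p = 0.00599, 0.0502 without control 213 and 0.143 with embryo sex as a covariate). Mmp9, the marker next in CPM, overlapped between groups (45.2 ± 18.2 and 38.0 ± 29.4 CPM, edgeR's adjusted p = 0.889).

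Of 6 microglial markers 2 were lower and 0 higher with edgeR (against 3.37% and 3.65% of all tested genes), and 2 fold changes were above 0. P2ry12, Siglech and Gpr34 were at 0.139 to 2.08 CPM over the 6 libraries and overlapped between groups. Their log2 fold changes were 0.48, 0.34 and -0.0014 (edgeR's adjusted p = 0.342, 0.792 and 0.999), so the 2 lower markers do not stand for the list. Tmem119 and Olfml3, which bone and other mesenchymal cells also make, fell from 151.9 ± 8.35 to 111.5 ± 11.0 CPM and from 150.8 ± 12.6 to 108.03 ± 16.3 CPM (SD, n = 3 each, edgeR's adjusted p = 0.00599 and 0.0499). Neither passed with embryo sex as a covariate (0.139 and 0.372), and Olfml3 passed in 6 of 16 alternatives. Erythroid markers overlapped between groups in sum (3692 to 4885 and 2142 to 4750 CPM). Blood endothelial markers summed to 404.7 to 419.3 CPM in controls against 368.4 to 403.1 CPM in deletion libraries, but with edgeR 0 of the 7 passed. Unadjusted, 4 of them were lower and 1 higher, and 3 of the 7 fold changes were above 0. Osteoblast markers summed to 823 to 1186 against 155.8 to 320.8 CPM, and chondrocyte markers to 252.7 to 383.6 against 602.7 to 676.5 CPM. Of 6 epithelial markers 4 were lower and 0 higher (sums of 940 to 1004 against 564.6 to 795.7 CPM), and of 6 skeletal muscle markers 5 were higher and 0 lower (213.4 to 238.2 against 406.9 to 613.9 CPM). The palate mesenchyme markers summed to 7835 to 9291 against 6776 to 7714 CPM, with 0 of 7 called by edgeR, 1 lower and 2 higher at an unadjusted p under 0.05, and 1 in each direction by DESeq2. The 2 markers of highest CPM weigh most in that sum. Col1a1 went from 4078 ± 688 to 2824 ± 331 CPM, and Col3a1 from 3061.5 ± 182 to 2817 ± 201 CPM (SD, n = 3 each). Of the 7 fold changes 3 were above 0, so the lower sum does not stand for the list. These tissue differences stand beside the lower F13a1 and Csf1, and their part in those results was not tested.

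Genes outside these lists whose levels followed the members most closely were sought over the same 6 libraries. For each of 12735 named autosomal protein-coding genes at a mean of 1 CPM or more, Pearson's r was taken with the mean of the members' standardized log2 levels. The 8 highest were Cldn23, Chst14, Tmem150a, Tmem151a, Siah2, Wdr92, Hspb1 and Timm10b, with r from 0.984 to 0.992, and 62 genes exceeded 0.95. Cldn23 measured 5.44, 4.73 and 3.34 CPM in controls 212, 213 and 220 and 3.44, 4.16 and 3.62 CPM in deletion 208, 211 and 221, the same order of controls as the C1q genes. None of the 8 passed the test between groups (lowest edgeR's adjusted p = 0.261). With 6 libraries and this many genes, such values describe these libraries only.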

How the data were processed

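The authors deposited 1 table of estimated counts (expected counts) per gene symbol, not normalized. The submitters' processing notes list STAR 2.4.1d, Partek, CASAVA 1.8.2 and the build mm10. The roles of these tools, the annotation and the strand setting have no source here. Column names give a library's group but not its labelled replicate number.

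Counts were rounded to whole numbers, kept by filterByExpr (minimum count 10, minimum total 15) and scaled by TMM. Deletion was compared with control in edgeR 4.0.16 (R 4.3.3) with its quasi-likelihood test, robust estimation and Benjamini-Hochberg adjustment over 19284 genes, at a threshold of 0.05. The procedure was tested on simulated data. SE is the absolute log2 fold change over the square root of F. DESeq2 1.42.0, limma voom (limma 3.58.1), other scalings, filters and covariates, and leaving out each library were the alternatives. Exact permutation tests on log2 ratios were two-sided. The members and lists were chosen with earlier results of these data known. Named genes are all members, Prmt1, up to 4 genes of smallest p past the threshold per related list, the 2 markers of highest CPM in the cell types described one by one, and the 8 genes closest in pattern. Ppbp, Ccl21a, Prox1, Cma1, P2ry12, Siglech, Gpr34, Vsig4 and Serping1 fall outside that rule and were chosen after their values were seen. Some list genes enter the counts and medians but are not reported here by name. Positions and lengths are from GENCODE M21, promoters from RefSeq. Chi-square per degree of freedom between libraries of a group was 7.74 to 37.3, so none was a duplicate.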

Additional observations from a re-analysis of the deposited data

How the results depend on the processing

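All 16 alternatives were compared with the full fit. The count of 1352 genes became 2125 with the DESeq2 Wald test, 129 with embryo sex as a covariate, 89 against control 220 alone, 294 with the globin ratio as a covariate and 356 to 1872 with 1 library left out (356 without control 213, 545 without deletion 208, 711 without deletion 211). The member count of 1 became 2 with DESeq2 and with robust=FALSE, which added Mrc1, 0 with edgeR under sex, control 220 alone or the globin ratio, and 0 to 2 with 1 library left out. At an unadjusted p under 0.05, 1 member was lower and 0 higher with sex in the model, and the same counts held with the globin ratio. The share of all genes at this unadjusted threshold was not counted in these settings. The count of 10 related genes became 19 with DESeq2, 2 with sex, 1 against control 220 alone, 1 with the globin ratio and 3 to 19 with 1 library left out, where 19 is without control 220. The members' median of -0.15 ran from -0.26 to -0.07 with 1 library left out and was -0.0053 with sex, -0.0033 against control 220 alone and -0.0096 with the globin ratio. The cause was not tested.

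F13a1, Mrc1, Ptprc and Csf1r were below 0 in all 16 alternatives. Signs turned for Cx3cr1 (-0.0062 with upper-quartile factors, -0.019 with the globin ratio, -0.037 to 0.049 with 1 library left out), Adgre1 (0.022 with the globin ratio, -0.10 to 0.017 with 1 library left out), Cd68 (0.015 with sex, 0.017 against control 220), C1qa (-0.057 to 0.23 with 1 library left out), C1qb (0.30 with sex, 0.31 against control 220, 0.27 with the globin ratio) and C1qc (0.39, 0.39 and 0.38 in the same order, and -0.25 to 0.14 with 1 library left out). The cause was not tested. No paired analysis was possible because the columns carry no replicate number of the labels, so the replicate block was not run.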
